A study of Homo sapiens with 6 samples.

Results

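The genes described here are 7 textbook transcriptional targets of p53, MDM2, CCNG1, CDKN1A, ZMAT3, SESN1, TP53INP1 and GADD45A, picked by gene symbol from a deposited table of 16315 genes. All 7 were found. They were measured by bulk RNA-seq in F36P, an established human leukaemia line with erythroid features. One group of 3 libraries carried a CRISPR guide RNA against the histone deacetylase HDAC7 (sgHDAC7, genotype HDAC7 knockout) and the other group of 3 a non-targeting guide (sgNT, genotype WT). Both groups were selected with puromycin at 1 µg/ml for 4 days. The labels number the libraries as biological replicates but name no separate cultures, so the p-values measure the spread between these libraries, which may be technical. The cells are transduced populations of 1 line, and the table reports RNA, not p53 protein.

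p53 is a transcription factor held at a low level by the ubiquitin ligase MDM2, whose own gene it activates, so that the pair forms a feedback loop. When DNA damage or other stress stabilises p53, it binds a response element built of a pair of 10-base half-sites and switches on genes of cell-cycle arrest (CDKN1A, CCNG1, GADD45A), apoptosis, DNA repair and nutrient sensing (SESN1). Many of these genes are also driven by other factors, among them FOXO proteins and the stress factor ATF4. In blood cells the pathway is best known for limiting progenitors after DNA damage.

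The reference sequences show which of these genes carry a recognisable p53 element next to their start. RefSeq windows on GRCh38.p14, from 250 bases before to 50 after a gene start, were available for 5 of the 7 members (none for TP53INP1 and GADD45A). A p53 full site was counted as 2 adjoining half-sites with a spacer of 0 or 1 base and at most 2 mismatches, none of them in the C and G of the half-site core CNNG. The motif reads the same on both strands. It occurred in 0.533% of the 35116 windows of all genes. Among the members only MDM2 held one, upstream of its internal second promoter and inside intron 1 of transcripts that start further upstream. The stretch is shown on the plus strand at chr12:68808873-68808992, with the full site in capitals, 94 bases before that second start:

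MDM2 second promoter: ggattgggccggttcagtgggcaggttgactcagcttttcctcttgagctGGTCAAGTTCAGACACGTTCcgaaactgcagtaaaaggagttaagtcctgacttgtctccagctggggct

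SESN1 (minus strand, chr6:109009028-109009037) held a single half-site with 0 mismatches, a match found in 6.63% of all windows. It is shown in capitals with 12 bases on each side:

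SESN1 half-site: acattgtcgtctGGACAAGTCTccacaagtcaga

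Not every other p53 target was searched, as some, among them TNFRSF10A, TNFRSF10B, RRM2B and CMBL, had no window in the search. Of those searched and in the table, DDB2 and AEN held a full site in the same window. That of DDB2, a damage-recognition factor of DNA repair, lies at chr11:47214979-47214999 (0 mismatches, spacer 1). That of AEN, an apoptosis nuclease, lies at chr15:88621306-88621325 (2 mismatches). Both are given on the plus strand, with the 4 core bases of each half-site in capitals:

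DDB2 full site: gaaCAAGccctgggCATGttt

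AEN full site: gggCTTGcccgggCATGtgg

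The windows of CCNG1, CDKN1A and ZMAT3 held neither match. That says only that these letters are not in these windows, as response elements can lie in introns or further upstream.

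The libraries held 10039693 to 12521195 counts. The share of mitochondrially encoded mRNA ranged over 3.46% to 3.79% in the sgHDAC7 libraries and 2.72% to 3.96% in those of sgNT. HDAC7, the gene under the guide, had 194, 239 and 246 CPM (counts scaled to a common library total, with TMM factors) in sgHDAC7 replicates 1, 2 and 3 and 449.9 to 461.8 CPM in sgNT, a log2 fold change of -1.02 ± 0.09 (SE, edgeR quasi-likelihood test, adjusted p = 0.00139). All 7 erythroid markers were in the table, with a summed level of 13440 to 17739 CPM in sgHDAC7 and 9308 to 13650 CPM in sgNT, and the part of that difference in the results here was not tested. None of 3 T cell markers was listed. In each group the replicate 1 library differed more from the other two than those did from each other, so results that depend on it are also given with a term for replicate 1 or on replicates 2 and 3 alone. The term assumes the same guide difference in all replicates, and where the differences by replicate are unlike, its value averages unlike values.

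Of the 7 members, CCNG1 alone changed, and it fell. CCNG1 was 1.48-fold lower in sgHDAC7, while MDM2, ZMAT3, SESN1, TP53INP1 and GADD45A did not pass the test and CDKN1A was too low to enter it. Of the 7, 6 passed the filter of a mean of at least 1 CPM. Across all 13841 genes tested, 2.86% were called in either direction (1.16% higher and 1.7% lower), and the single call among the 6 is a result about CCNG1 alone. The median log2 fold change of the 6 was -0.09, against -0.0016 over all genes tested. At an unadjusted p under 0.05, 0 members were higher and 1 was lower, beside 9.18% and 9.99% of all genes. DESeq2 and limma each called 0 higher and 1 lower, beside 2.35% and 3.39% of all genes for DESeq2 and 1.09% and 1.51% for limma.

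**Figure D1:**
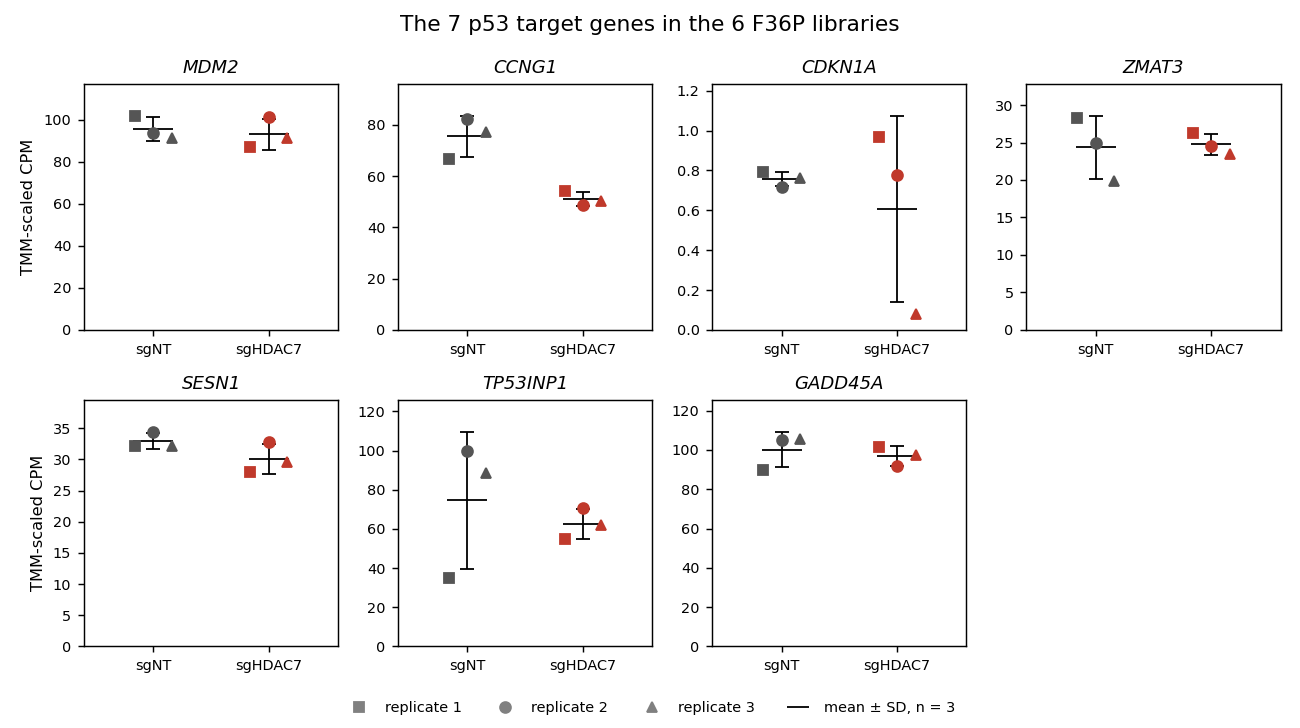
TMM-scaled CPM of the 7 target genes (y axes from 0) in each sgNT (grey) and sgHDAC7 (red) library, with marker shape for replicate and mean ± SD, n = 3. CCNG1 is the panel in which all 3 sgHDAC7 libraries lie below all 3 sgNT libraries, and TP53INP1 the one in which sgNT replicate 1 (34.9 CPM) lies below every other library.

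MDM2 (ENSG00000135679, chr12:68808176-68850686, plus strand; identifiers and positions are those of GENCODE 29 on GRCh38, matched by symbol) encodes the ubiquitin ligase that targets p53 for degradation. It had 86.7, 101 and 91.1 CPM in sgHDAC7 and 101.8, 93.6 and 91.1 CPM in sgNT, means of 92.9 ± 7.32 and 95.5 ± 5.59 CPM (SD, n = 3). The highest and the lowest library were sgNT replicate 1 and sgHDAC7 replicate 1, and the groups overlapped. The log2 fold change was -0.04 ± 0.08, with a 95% interval of -0.22 to 0.14 (edgeR test, adjusted p = 0.837). Its sign turned, still without a call, on replicates 2 and 3 alone (0.055) and without sgNT replicate 1 (0.0085). MDM2 exons share 439 bases with AC025423.2 on the same strand, and 785 and 133 bases with AC025423.4 and the carboxypeptidase M gene on the opposite strand. Whether counting used strand is not given in the sources used here, so reads there could belong to either gene. Counts per gene do not separate transcripts of the p53-responsive second promoter, shown above, from those of the first. MDM4, the related inhibitor of p53 without that ligase activity of its own, had 51.2 to 57.3 CPM in sgHDAC7 and 48.6, 69.4 and 63.8 CPM in sgNT replicates 1, 2 and 3. MDM4 was not called with group alone (log2 -0.16 ± 0.12, edgeR test, adjusted p = 0.528). It passed on replicates 2 and 3 alone (log2 -0.25, edgeR test, adjusted p = 0.022), where the level in sgNT was the higher of the 2 groups.

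CDKN1A (ENSG00000124762, chr6:36676460-36687339, plus strand), which encodes the cyclin-dependent kinase inhibitor p21 and is the classic arrest gene of the pathway, was barely detected. It had 12, 9 and 1 counts in sgHDAC7 replicates 1, 2 and 3 and 8 counts in each sgNT library, that is 0.966, 0.777 and 0.081 CPM against 0.719 to 0.791 CPM. Summed over the libraries, 22 counts of 36634617 stood against 24 of 31632646, a ratio of 0.792 with an exact 95% interval of 0.423 to 1.47 that covers counting error only. CDKN1A exons likewise share 146 bases with the antisense gene DINOL. No difference was detectable at this depth, and the fit without the filter gave a log2 fold change of -0.31 ± 0.66 (edgeR test, adjusted p = 0.864). Its paralog CDKN1B (p27) was measured well above it, at 27.1 to 28.7 CPM in sgHDAC7 and 21.1 to 33.3 CPM in sgNT (log2 -0.04 ± 0.16, edgeR test, adjusted p = 0.913). The sign of CDKN1B turned without sgNT replicate 2 or 3. The INK4 inhibitor genes CDKN2C and CDKN2D were also in the table, with log2 fold changes of -0.17 and -0.51 that did not pass with group alone. Adding the replicate 1 term, CDKN2D was lower (log2 -0.50, edgeR test, adjusted p = 0.0198).

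CCNG1 (ENSG00000113328, chr5:163437569-163446151, plus strand) encodes cyclin G1, a cyclin that brings a phosphatase to MDM2. It had 54.1, 48.7 and 50.1 CPM in sgHDAC7 replicates 1, 2 and 3 and 66.6, 82.4 and 77.3 CPM in sgNT. All 3 sgHDAC7 libraries lay below all 3 sgNT libraries, as was the case in one direction or the other for 25.1% of all genes tested (12.2% lower, 13% higher). In bulk RNA, fewer cells carrying the transcript and less of it per cell cannot be told apart. The means were 51.0 ± 2.81 and 75.5 ± 8.07 CPM (SD, n = 3), and the log2 fold change was -0.57 ± 0.09 with a 95% interval of -0.78 to -0.35 (edgeR test, adjusted p = 0.0207). Permuting the 6 libraries exactly gave a two-sided p of 0.1, the smallest that 3 against 3 allow. By replicate, the log2 difference was -0.30 for number 1 and -0.69 for the mean of numbers 2 and 3. With the replicate 1 term, which called 12.6% of all genes, the log2 fold change was -0.56 (edgeR test, adjusted p = 0.00143), and 1 member, CCNG1, was again the call. Leaving out replicate 2 or 3 of sgHDAC7, or replicate 2 or 3 of sgNT, lost the call (edgeR test, adjusted p = 0.13, 0.127, 0.0978 and 0.091), while the log2 fold change stayed between -0.65 and -0.50 whichever library was left out.

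CCNG2, the second cyclin G and a known FOXO target, lay lower in sgHDAC7 by a similar ratio at a far lower level. It had 6.60, 8.98 and 8.90 CPM in sgHDAC7 and 11.7, 14.7 and 14.1 CPM in sgNT, with no overlap between groups. The log2 fold change of -0.73 ± 0.17 missed the threshold with group alone (edgeR test, adjusted p = 0.0562) but not with replicate 1 as a term (-0.73, edgeR test, adjusted p = 0.00455). The tested genes whose profile over the 6 libraries lay nearest to that of CCNG1, by mean absolute difference of centred log2(CPM + 0.5) values, were ITGB7 (0.014), TRIM6 (0.0357) and IDH1 (0.0373). Because they were chosen by this likeness, differences of about the size of that of CCNG1 follow from the choice and are no separate result. The log2 fold changes were -0.56 and -0.61 for TRIM6 and IDH1 (edgeR test, adjusted p = 0.03 and 0.0202), and -0.62 for ITGB7 (0.116).

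GADD45A (ENSG00000116717, chr1:67685061-67688338, plus strand) encodes a small protein of growth arrest and DNA repair. It had 101.7, 91.6 and 97.6 CPM in sgHDAC7 and 90.03, 105.2 and 105.4 CPM in sgNT. The groups overlapped, with the lowest value in sgNT replicate 1, and the log2 fold change was -0.05 ± 0.08 with a 95% interval of -0.23 to 0.14 (edgeR test, adjusted p = 0.806). Its paralog GADD45B was under the filter, at 0.38 to 1.48 CPM over the 6 libraries.

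SESN1 (ENSG00000080546, chr6:108986437-109094819, minus strand) belongs to the sestrins, leucine-binding proteins that restrain the growth kinase complex mTORC1. SESN1 had 27.9, 32.7 and 29.6 CPM in sgHDAC7 and 32.2, 34.3 and 32.2 CPM in sgNT. The groups overlapped by a single sgHDAC7 library, replicate 2, and the log2 fold change of -0.13 ± 0.10 had a 95% interval of -0.35 to 0.09 (edgeR test, adjusted p = 0.511). The other 2 sestrins fell. SESN3 had 36.5, 33.6 and 34.7 CPM in sgHDAC7 and 47.6, 46.3 and 44.8 CPM in sgNT, a log2 fold change of -0.40 ± 0.08 (edgeR test, adjusted p = 0.0356). SESN2 had 15.7, 16.7 and 15.1 CPM in sgHDAC7 and 21.6, 116 and 118 CPM in sgNT, a log2 fold change of -2.43 ± 0.50 (edgeR test, adjusted p = 0.0384). Among the single omissions, SESN2 and SESN3 kept their calls only without sgNT replicate 1 (log2 -2.89 and -0.38, edgeR test, adjusted p = 4.4e-09 and 0.0167). Under the other omissions the adjusted p was 0.0898 to 0.184 for SESN2 and 0.0552 to 0.168 for SESN3. SESN2 is a shared target of p53 and ATF4, and its log2 difference was -0.45 for replicate 1 and -2.85 for replicates 2 and 3, where the fit on those replicates alone gave -2.88 (edgeR test, adjusted p = 4.73e-19). SESN3 differed alike in replicate 1 and in replicates 2 and 3 (log2 -0.38 and -0.41). Whether the sestrins differ from one another in their response was not tested.

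**Figure D2:**
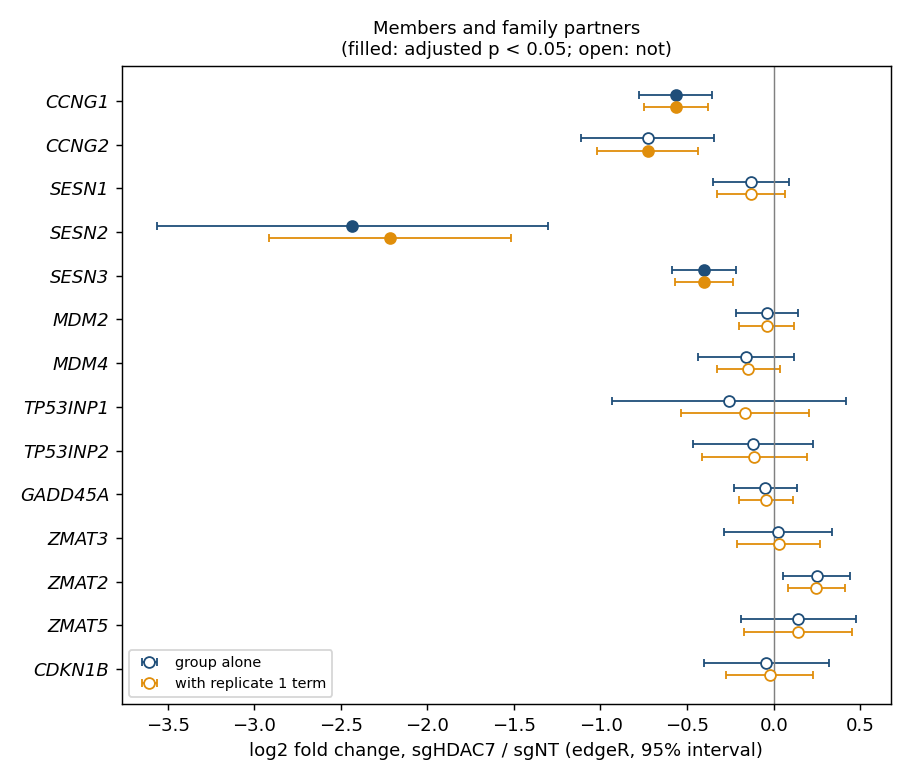
Log2 fold change of sgHDAC7 over sgNT (x axis) with 95% intervals for members and their family partners (y axis), from edgeR with group alone (blue) and with a replicate 1 term (orange), filled where the adjusted p is under 0.05. CCNG1, SESN2 and SESN3 are filled in both fits and CCNG2 with the replicate 1 term only, while the intervals of MDM2, GADD45A, ZMAT3 and SESN1 span 0.

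TP53INP1 (ENSG00000164938, chr8:94925972-94949411, minus strand) encodes a stress-induced protein of p53 signalling and autophagy, and of the 6 members above the filter it had the widest range over the libraries, relative to its level. It had 55.1, 70.7 and 61.8 CPM in sgHDAC7 replicates 1, 2 and 3 and 34.9, 99.95 and 88.7 CPM in sgNT. The sgHDAC7 libraries thus lay between sgNT replicate 1 below and sgNT replicates 2 and 3 above. With group alone the log2 fold change was -0.26 ± 0.30, with a 95% interval of -0.93 to 0.42 (edgeR test, adjusted p = 0.695). By replicate, the log2 difference was 0.65 for number 1 and -0.51 for the mean of numbers 2 and 3, so the assumption of the replicate 1 term did not hold for this gene. On replicates 2 and 3 alone it was called lower (log2 -0.51, edgeR test, adjusted p = 1.93e-05), as it was without sgNT replicate 1 (log2 -0.60, edgeR test, adjusted p = 0.00361). Without sgNT replicate 2 the value was 0.014 (edgeR test, adjusted p = 0.989). DDIT4, a stress gene shared by p53 and ATF4, also separated the sgNT libraries, with 104 CPM in replicate 1 and 802 and 812 CPM in replicates 2 and 3. Its part in the TP53INP1 values was not tested. The paralog TP53INP2 had 12.4 to 13.0 CPM in sgHDAC7 and 11.4 to 16.4 CPM in sgNT (log2 -0.12 ± 0.15, edgeR test, adjusted p = 0.728), and its sign turned without sgNT replicate 2.

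ZMAT3 (ENSG00000172667, chr3:179017223-179072279, minus strand) encodes a zinc finger protein that binds RNA. It had 26.3, 24.5 and 23.5 CPM in sgHDAC7 and 28.3, 24.9 and 19.9 CPM in sgNT, so the sgNT libraries spanned all 3 sgHDAC7 libraries. The log2 fold change was 0.02 ± 0.14 with a 95% interval of -0.29 to 0.33 (edgeR test, adjusted p = 0.946), and its sign turned without sgHDAC7 replicate 1 or sgNT replicate 3. Of its relatives, ZMAT2 had 48.2 to 55.6 CPM in sgHDAC7 and 41.6 to 45.2 CPM in sgNT without overlap (log2 0.25 ± 0.09, edgeR test, adjusted p = 0.154), and ZMAT5 had a log2 fold change of 0.14 ± 0.15.

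Levels can be compared between genes only per length. Per kilobase of merged GENCODE 29 exons, GADD45A was the most abundant member, with 48.4 ± 4.25 CPM in sgNT, followed by CCNG1 (24.4 ± 2.61), TP53INP1 (13.1 ± 6.13), MDM2 (7.19 ± 0.421), SESN1 (6.43 ± 0.239), ZMAT3 (2.52 ± 0.439) and CDKN1A (0.248 ± 0.0118). In sgHDAC7 the order was the same, with 46.9 CPM per kilobase for GADD45A, 16.5 for CCNG1 and 11.0 for TP53INP1. In sgNT, TP53INP1 overlapped both MDM2 and SESN1 in its range over libraries. Using the longest transcript as the length put SESN1 (9.38) above MDM2 (7.56), so the order of those 2 depends on the gene model.

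Beyond the 7, 54 further direct targets of p53 had been listed, of which 44 were in the table and tested. With group alone 4 fell and none rose, beside 1.7% and 1.16% of all genes tested. The 4 were SESN2, DDIT4, ATF3 and CMBL. Leaving out any library but sgNT replicate 1 lost the calls of DDIT4 (log2 -3.19, adjusted p then 0.0775 to 0.167) and ATF3 (log2 -2.45, then 0.107 to 0.196). At an unadjusted p under 0.05, 2 were higher and 12 lower of the 44, beside 9.18% and 9.99% of all genes. DESeq2 called 1 higher and 7 lower (2.35% and 3.39% of all genes), and limma 0 higher and 1 lower (1.09% and 1.51%). The median log2 fold change of the 44 was -0.08. With the replicate 1 term 2 were higher and 10 lower, beside 5.78% and 6.81% of all genes tested, and on replicates 2 and 3 alone 3 were higher and 13 lower, beside 9.72% and 10.9%. On those replicates DDIT4 and ATF3 had log2 fold changes of -3.62 and -2.90 (edgeR test, adjusted p = 5.27e-25 and 4.56e-09), while their differences for replicate 1 were -0.86 and -0.40. SESN2, DDIT4 and ATF3 are also ATF4 targets. In all 3 the sgNT replicate 1 value lay above sgHDAC7 but nearer to it than to sgNT replicates 2 and 3. ATF3 had 2.17 CPM there, against 10.9 and 12.4 CPM in sgNT replicates 2 and 3 and 1.38 to 1.73 CPM in sgHDAC7. DDIT4 had 104 CPM there, against 802 and 812 CPM and 57.3 to 66.2 CPM. The window of the ATF3 start further upstream held a match to TGATGNAA, the letters used here for the ATF4 element. The match lies on the plus strand at chr1:212565216-212565223, 191 bases before that start. The window of the other ATF3 start held none. No window of DDIT4, of SESN2 and the other family partners, or of the members held one, against 3.62% of all windows. Whether ATF4 acts through the ATF3 match was not tested. The match is shown in capitals:

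ATF3 match: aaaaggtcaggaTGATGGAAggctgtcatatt

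The FOXO letters GTAAACA, found in 3.42% of all windows on either strand, occurred in no window of the members or their partners either.

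No apoptosis target passed with group alone (11 tested). Their median log2 fold change was -0.36, and the median log2 difference was -0.10 for replicate 1 and -0.16 for replicates 2 and 3. At an unadjusted p under 0.05, 1 was higher and 3 lower, beside 9.18% and 9.99% of all genes, and DESeq2 called 2 lower (3.39% of all genes) and limma 0. BBC3 (PUMA), an activator of mitochondrial apoptosis, had 20.1, 19.6 and 25.8 CPM in sgHDAC7 and 23.1, 54.1 and 58.1 CPM in sgNT. Its log2 fold change of -1.05 ± 0.29 was not called with group alone (edgeR test, adjusted p = 0.0867). PMAIP1 (NOXA), which acts on the same step, had 16.2 to 19.3 CPM in sgHDAC7 and 18.1, 37.4 and 35.7 CPM in sgNT. TNFRSF10B, a death receptor for TRAIL, had 17.4 to 19.6 CPM in sgHDAC7 and 21.1, 32.9 and 37.4 CPM in sgNT. In these 3 genes sgNT replicate 1 again lay near the sgHDAC7 libraries. BBC3, PMAIP1 and TNFRSF10B were lower with the replicate 1 term (log2 -0.98, -0.74 and -0.70, edgeR test, adjusted p = 0.00407, 0.00669 and 0.0117). Their differences by replicate were unlike, at -0.20, -0.16 and -0.10 for replicate 1. On replicates 2 and 3 alone the log2 fold changes were -1.30, -0.98 and -0.97 (edgeR test, adjusted p = 9.73e-10, 2.28e-07 and 4.82e-07). AEN went the other way, with 67.0 to 72.1 CPM in sgHDAC7 and 66.8, 42.2 and 43.3 CPM in sgNT, and was higher with that term (log2 0.47, edgeR test, adjusted p = 0.0104), with a difference of 0.11 for replicate 1 and 0.65 for replicates 2 and 3. Of the 11, 3 were lower and 1 higher with the replicate 1 term, beside 6.81% and 5.78% of all genes. On replicates 2 and 3 alone 4 were lower and 1 higher, beside 10.9% and 9.72%. BAX, the pore-forming effector, had a log2 fold change of 0.09 ± 0.08.

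**Figure D3:**
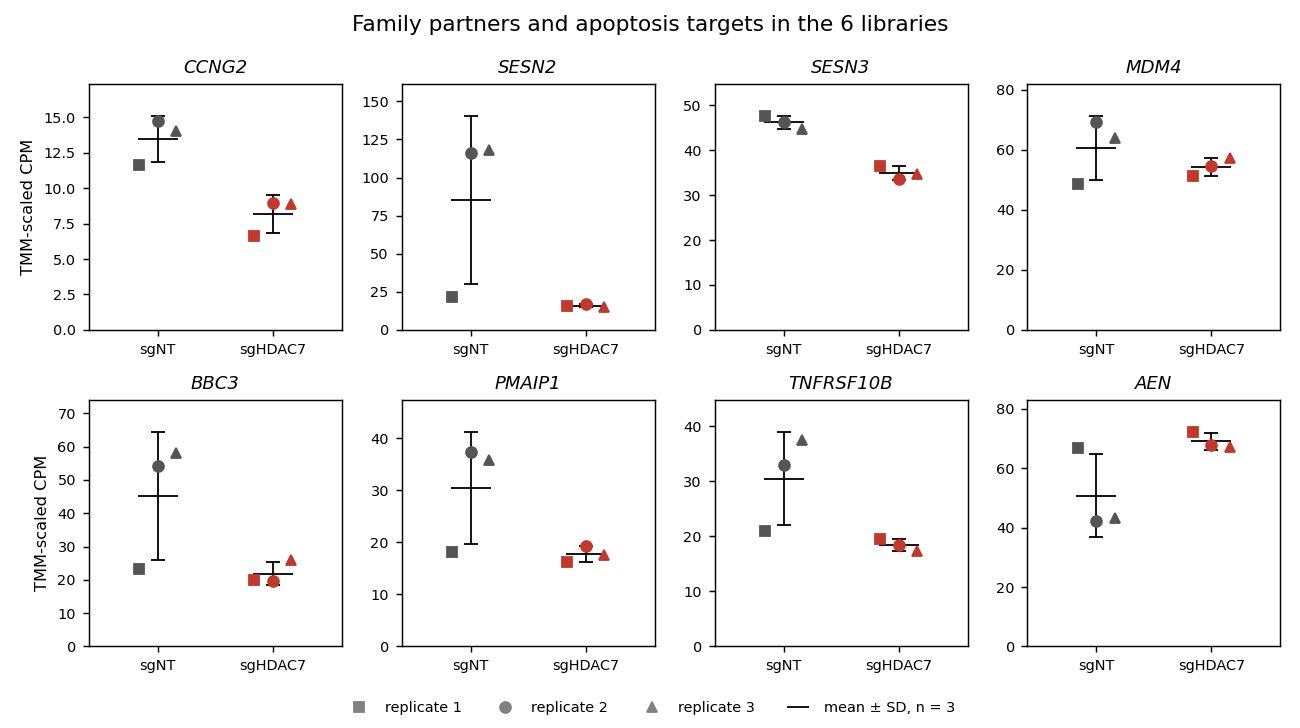
TMM-scaled CPM (y axes from 0) of 4 family partners and 4 apoptosis targets in each sgNT (grey) and sgHDAC7 (red) library, with marker shape for replicate and mean ± SD, n = 3. CCNG2 and SESN3 separate the groups in all replicates, while in SESN2, BBC3, PMAIP1 and TNFRSF10B the high values are those of sgNT replicates 2 and 3.

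Arrest targets outside the 7 held no call with group alone (6 tested, median log2 -0.17). At an unadjusted p under 0.05, 2 were lower, beside 9.99% of all genes. DESeq2 called 1 lower (3.39% of all genes) and limma 0. GDF15, a secreted stress cytokine, and the kinase gene PLK3 were lower with the replicate 1 term (log2 -1.71 and -0.70, edgeR test, adjusted p = 0.0155 and 0.014). With that term 6.81% of all genes were lower. GDF15 had 2.58, 1.295 and 1.295 CPM in sgHDAC7 and 2.87, 6.38 and 8.36 CPM in sgNT, a log2 difference of -0.13 for replicate 1 and -2.12 for replicates 2 and 3. PLK3 differed by -0.89 and -0.53, and on replicates 2 and 3 alone it was not called (edgeR test, adjusted p = 0.0515). BTG2 and PLK2 resembled TP53INP1 in having their lowest value in sgNT replicate 1, at 11.6 CPM against 20.9 to 32.1 CPM elsewhere for BTG2 and 2.57 CPM against 6.99 to 12.1 CPM for PLK2 (both named after their values were seen). DNA repair targets, DDB2, XPC, RRM2B, POLH, PCNA and RPS27L, had log2 fold changes from -0.26 to 0.31, and none of the 6 was called when all libraries were fitted, whether or not replicate 1 had a term. On replicates 2 and 3 alone PCNA was higher (log2 0.17, edgeR test, adjusted p = 0.0273) and RRM2B lower (-0.34, 0.00367). That fit called 9.72% of all genes higher and 10.9% lower. With group alone RRM2B was lower at an unadjusted p under 0.05, beside 9.99% of all genes. The other 5 did not reach that level, and DESeq2 and limma called none.

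All 4 targets that fell with group alone belonged to the metabolic group (10 tested, 3 lower) or the remaining targets (11 tested, 1 lower). Over all genes tested, 1.7% were lower in that fit. CMBL, a hydrolase, had 164, 173 and 174 CPM in sgHDAC7 and 195, 224 and 219 CPM in sgNT (log2 -0.32 ± 0.07, edgeR test, adjusted p = 0.0455), and among the single omissions kept its call only without sgNT replicate 1 (otherwise adjusted p = 0.102 to 0.179). With the replicate 1 term STEAP3, an endosomal iron reductase, was higher (log2 0.44, edgeR test, adjusted p = 0.00354) and CD82, a tetraspanin, was lower (-0.25, 0.0229). Among 20 tested genes of p53 control, which include ATM, ATR, CHEK1, CHEK2 and USP7, none passed with group alone (median log2 -0.05). At an unadjusted p under 0.05, 2 were lower, beside 9.99% of all genes. DESeq2 called 1 lower (3.39% of all genes) and limma 0. RCHY1, a further ubiquitin ligase of p53, had 49.0, 41.4 and 47.4 CPM in sgHDAC7 and 61.2, 58.1 and 59.8 CPM in sgNT and missed the threshold with group alone (log2 -0.38 ± 0.09, edgeR test, adjusted p = 0.0516). On replicates 2 and 3 alone 1 gene of the 20, CHEK2, was higher and 3, MDM4, RCHY1 and RPL5, were lower, beside 9.72% and 10.9% of all genes. RCHY1 was the single call with the replicate 1 term (log2 -0.38, edgeR test, adjusted p = 0.00817), which called 12.6% of all genes.

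**Figure D4:**
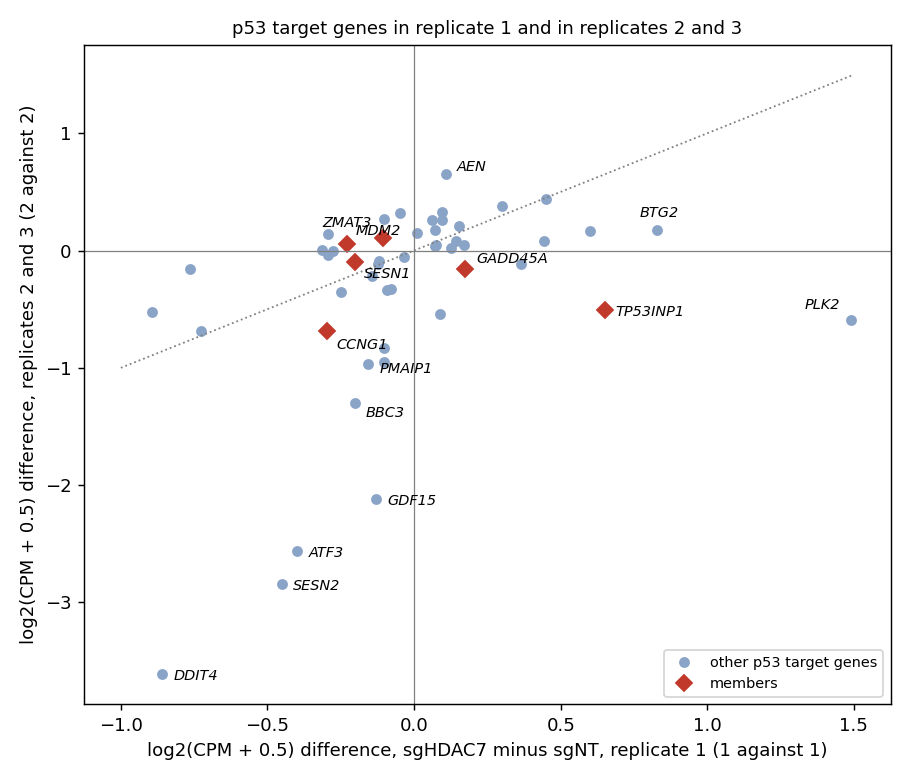
Difference in log2(CPM + 0.5), sgHDAC7 minus sgNT, for 50 tested p53 targets for replicate 1 (x axis, 1 library against 1) and for the mean of replicates 2 and 3 (y axis, 2 against 2), members as red diamonds, other targets as blue circles, the dotted line marking equal values. TP53INP1 stands at 0.65 on x and -0.51 on y, CCNG1 at -0.30 and -0.69, and DDIT4, SESN2 and ATF3 lie far below the line.

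The 50 tested targets, members included, were also set side by side by replicate. Their median log2 difference was -0.09 for number 1 and -0.05 for the mean of numbers 2 and 3. Summed over the 7 members, levels were 353 to 370.0 CPM in sgHDAC7 and 355, 441 and 415 CPM in sgNT replicates 1, 2 and 3. On replicates 2 and 3 alone 2 members, CCNG1 and TP53INP1, were lower and none higher, beside 20.6% of all genes called in that fit (9.72% higher and 10.9% lower).

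Cell-cycle genes that p53 represses through p21 and the DREAM complex were read because CDKN1A lies upstream of them. Of 25 tested, 2 rose, MYBL2 and CDC20, and 0 fell with group alone, and the median log2 fold change was -0.04. The shares over all genes were 1.16% higher and 1.7% lower. At an unadjusted p under 0.05, 3 were higher and 5 lower, beside 9.18% and 9.99% of all genes. DESeq2 and limma each called 2 higher and 0 lower. Over all genes these called 2.35% and 3.39% (DESeq2) and 1.09% and 1.51% (limma). MYBL2, a transcription factor of the S and G2 phases, had 434, 424 and 419 CPM in sgHDAC7 and 345, 298 and 310.0 CPM in sgNT (log2 0.42 ± 0.07, edgeR test, adjusted p = 0.02). CDC20, an activator of the anaphase-promoting complex, had a log2 fold change of 0.29 ± 0.06 (edgeR test, adjusted p = 0.0369). Among the single omissions MYBL2 kept its call only without a replicate 1 library (otherwise adjusted p = 0.091 to 0.117), and CDC20 only without sgNT replicate 1 (otherwise 0.0675 to 0.168). With the replicate 1 term E2F1 was higher as well (log2 0.23, edgeR test, adjusted p = 0.0321) and CENPA, NEK2 and TTK were lower (TTK -0.29, 0.019), beside 5.78% and 6.81% of all genes. On replicates 2 and 3 alone 4 were higher and 5 lower, beside 9.72% and 10.9%.

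FOXO factors and targets were examined because CCNG2, SESN3 and CDKN1B belong to them. Of 12 tested, 1 fell with group alone, SESN3, beside 1.7% of all genes. The median log2 fold change was -0.19. With the replicate 1 term 4 were lower and 1 higher, beside 6.81% and 5.78% of all genes, and on replicates 2 and 3 alone 6 were lower and 1 higher, beside 10.9% and 9.72%. The gene that was higher in both was CITED2, a transcriptional co-regulator (log2 0.36 with the term, edgeR test, adjusted p = 0.0143), with a difference of 0.67 for replicate 1 and 0.20 for replicates 2 and 3. TXNIP, a regulator of glucose uptake, had 118, 152 and 146 CPM in sgHDAC7 and 159.5, 278 and 270.4 CPM in sgNT (log2 -0.74 with the replicate 1 term, edgeR test, adjusted p = 0.000145). FOXO3 itself had 90.3, 98.7 and 98.3 CPM in sgHDAC7 and 102, 132 and 135 CPM in sgNT (log2 -0.35 with that term, edgeR test, adjusted p = 0.00442). Neither passed with group alone.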

How the data were processed

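Messenger RNA of 6 F36P libraries was sequenced after poly-T capture and random-hexamer priming, per the labels' protocols. The authors deposited a table of read counts per gene, all whole numbers, although its name says CPM. The submitters' processing notes name hg38 and edgeR 3.32.1 without a role. For the aligner, counting tool, annotation and strand setting, the answer is not given in the sources used here. Besides MDM2 and CDKN1A, ZMAT2 shares 152 exon bases with HARS2 on the same strand. On the opposite strand SESN1 shares 363 with AL390208.1, SESN3 93 with AP000787.1 and ZMAT5 399 with CABP7. HDAC7 shares 963, 117 and 32 there with AC004466.1, AC004466.3 and SLC48A1. Reads in these stretches could belong to either gene. Columns headed NC were taken as sgNT, the one other group, and 0 value columns were unmapped. All 16315 genes exceed 0.5 CPM in at least 2 libraries.

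The main test was edgeR 4.0.16 (glmQLFTest, two-sided, TMM, group alone) in R 4.3.3 on 13841 genes with a mean of at least 1 CPM, with Benjamini-Hochberg adjustment over all of them and a threshold of 0.05. Depth was 10039693 to 12521195 counts, so 3 counts correspond to 0.24 to 0.299 CPM, counting error only. Standard errors were obtained by dividing the log2 fold change by the root of F, and 95% intervals use the test's degrees of freedom. Scripts were tested on simulated counts. DESeq2 1.42.0, limma 3.58.1 on log2(CPM + 0.5), other scalings and filters, a replicate 1 term, a replicate block and omission of each library were alternatives. Named genes were HDAC7, the 7 members, their family partners, and up to 4 genes per list that passed in either fit, taken by smallest adjusted p, plus the 3 profiles nearest to each called member. Other genes given without a call were added after their values were seen. Some items are not reported here. Members and lists were chosen with earlier results of these data known.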

Additional observations from a re-analysis of the deposited data

How the results depend on the processing

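The counts of calls depended on how replicate 1 was treated. All genes changed numbered 396 with group alone, 1743 with the replicate 1 term, 2847 on replicates 2 and 3 alone, 718 with DESeq2 and 27 to 1588 when 1 library was left out. Members changed numbered 1, but 2 on replicates 2 and 3 alone and 0 to 2 when 1 library was left out. The p53 targets changed numbered 5, all lower. They were 13 with the replicate 1 term, 18 on replicates 2 and 3 alone, 9 with DESeq2, 2 with limma at either pseudocount and 0 to 15 when 1 library was left out. The cause was not tested, and the omissions also hold fewer libraries. CCNG1 kept its direction and its call in every setting run except the omissions named in the text.

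By their deviations from the group means, same-numbered libraries did not meet the rule set for pairing. The correlation across genes was 0.30, 0.11 and 0.097 for numbers 1, 2 and 3, where 0.1 was required of each. The 2 replicate 1 libraries did deviate alike, as replicate 1 of either group had -0.22 to -0.18 with numbers 2 and 3 of the other. Numbers 2 and 3 taken crosswise had 0.16 and 0.16, so they were not told apart. The replicate block gave 998 genes, 1 member and 11 p53 targets. Log2 fold changes turned sign, with no call on the turned side, for MDM2 (0.055 on replicates 2 and 3 alone; -0.11 to 0.0085 over the omissions), ZMAT3 (-0.10 to 0.14), TP53INP1 (-0.60 to 0.014), TP53INP2 (-0.24 to 0.026) and CDKN1B (-0.22 to 0.076). Depth limits CDKN1A and GADD45B, which lay under the filter.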
